A study of Mus musculus with 15 samples.

Results

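The genes described here are 33 neural genes of the mouse, chosen by name as genes of neural progenitors and neurons: 16 regulators (transcription factors) and 17 structural or neuronal genes. Their probes were found by the gene name in the array files for 32 of them, and Map2, which the files list as Mtap2, was found through its RefSeq accession. They had 45 probes. The scanner software marks each spot that is well above its background, and a gene was tested where 3 or more arrays of any group carried that mark, which was so for 29 of the 33 members (13 regulators and 16 structural or neuronal genes) among 21184 genes in all.

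Total RNA was measured on Agilent 1-colour arrays in embryoid bodies named EB9 in the labels (aggregates in which embryonic stem cells differentiate) labelled as depleted of Cbx7 with hairpin KD33 (4 arrays), in control EB9 (4 arrays), in embryonic stem (ES) cells labelled as depleted of Cbx7 with KD33 (4 arrays) and in control ES cells (3 arrays). All arrays are labelled biological replicates of mouse cells. The ES line, the strain, the time of differentiation and the control hairpin are not given in the sources used here. With 1 hairpin, the spread between arrays holds no variation between hairpins, and p-values weigh a difference against that spread.

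Neural differentiation runs from progenitors that express SoxB1 factors and nestin, through proneural helix-loop-helix factors, to neurons with neuronal tubulin, neurofilaments and synaptic proteins. In ES cells the genes of many such regulators have CG-rich promoters that Polycomb complexes keep silent. Cbx7 is a chromodomain subunit of Polycomb repressive complex 1 that binds methylated histone H3.

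Of the array features, between 62.5% and 69% were well above background, except on EB9 control 2, where 75.4% were. EB9 control 2 also stood apart for several members below, and results that rest on it are given without it. On all 4 slides a given group took the same place, and the place on the slide therefore cannot be told apart from the group. Slide 4 held no ES control. The Cbx7 probe of the RefSeq transcript was checked first, as the targeted gene. It differed between KD33 and control ES cells by −1.57 to −1.3 on the log2 scale within slides 1 to 3 (pooled difference −1.91, SE 1.23, limma adjusted p = 0.256), and was well above background on 2 of 4 KD33 and 3 of 3 control ES arrays. In EB9 it differed by −0.52 to 0.12 within the 4 slides (pooled −0.27, SE 1.14, adjusted p = 0.92). A probe assigned to a cDNA clone differed by −0.13 (SE 0.23) in ES cells and by −0.16 (SE 0.22) in EB9, so neither probe passed the test at either stage. The level of the RefSeq probe differed between slides in every group. With the slide as a term in the model, chosen after seeing the data, it was lower in KD33 ES cells (−1.41, SE 0.17, adjusted p = 1e-04), and in EB9 it differed by −0.27 (SE 0.15, adjusted p = 0.221). The clone probe then differed by −0.03 (SE 0.13) in ES cells and −0.16 (SE 0.12) in EB9. A lower Cbx7 level was therefore not shown in KD33 EB9 by either probe, and in KD33 ES cells it was shown by the RefSeq probe with the slide term alone. The 8 ES cell markers were all lower in EB9 than in ES cells, in KD33 and in control. In bulk RNA, fewer cells of a type and less RNA per cell cannot be told apart.

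Promoters are shown for the members that passed the test between KD33 and control with a measured difference of at least 1 on the log2 scale and that had an entry. The table of RefSeq promoters used (build GRCm38.p6) held 30 windows for 23 of the 33 members. Sox3, Stmn4, Gap43, Ncam1, Nefl, Nefm, Olig1, Pou3f1, Snap25 and Stmn2 had no entry. The sequences below are the 250 bases before the annotated start, 5′ to 3′ on the strand of the gene, with each CG dinucleotide in capitals. The first 5 belong to regulators that were higher in KD33 than in control ES cells, the next to the windows of Syt1, a neuronal gene that was also higher there, and the last to Nts, which was higher in KD33 than in control EB9.
Neurod1 (chr2:79456637-79456886, minus strand): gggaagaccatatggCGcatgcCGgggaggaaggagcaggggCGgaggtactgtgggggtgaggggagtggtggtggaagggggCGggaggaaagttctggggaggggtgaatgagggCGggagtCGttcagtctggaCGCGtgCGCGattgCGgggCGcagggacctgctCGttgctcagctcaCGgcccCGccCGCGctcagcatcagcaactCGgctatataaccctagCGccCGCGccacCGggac
Olig2 (chr16:91225300-91225549, plus strand): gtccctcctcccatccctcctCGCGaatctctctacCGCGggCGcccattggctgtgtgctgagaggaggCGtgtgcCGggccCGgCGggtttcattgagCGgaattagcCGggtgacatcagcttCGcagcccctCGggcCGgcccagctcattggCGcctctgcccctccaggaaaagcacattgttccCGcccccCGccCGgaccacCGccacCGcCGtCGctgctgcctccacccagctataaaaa
Nkx6-1 (chr5:101664712-101664961, minus strand): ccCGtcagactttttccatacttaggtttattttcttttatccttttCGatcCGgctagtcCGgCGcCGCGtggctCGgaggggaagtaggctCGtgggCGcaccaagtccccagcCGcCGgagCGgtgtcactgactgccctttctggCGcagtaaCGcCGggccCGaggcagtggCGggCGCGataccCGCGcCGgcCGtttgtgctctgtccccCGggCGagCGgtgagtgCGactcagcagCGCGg
Pou3f2 (chr4:22488367-22488616, minus strand): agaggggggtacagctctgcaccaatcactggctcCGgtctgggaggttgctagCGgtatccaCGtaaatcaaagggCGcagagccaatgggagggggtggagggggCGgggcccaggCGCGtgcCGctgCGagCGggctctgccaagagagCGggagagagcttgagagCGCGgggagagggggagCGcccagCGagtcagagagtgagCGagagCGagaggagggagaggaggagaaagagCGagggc
Prdm8 (chr5:98180619-98180868, plus strand): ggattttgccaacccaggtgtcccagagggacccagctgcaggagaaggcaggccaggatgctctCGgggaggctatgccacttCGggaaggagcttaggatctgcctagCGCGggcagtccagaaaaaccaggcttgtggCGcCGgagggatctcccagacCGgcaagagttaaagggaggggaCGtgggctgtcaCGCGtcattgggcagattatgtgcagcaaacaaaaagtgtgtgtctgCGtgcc
Syt1 window 1 (chr10:109010976-109011225, minus strand): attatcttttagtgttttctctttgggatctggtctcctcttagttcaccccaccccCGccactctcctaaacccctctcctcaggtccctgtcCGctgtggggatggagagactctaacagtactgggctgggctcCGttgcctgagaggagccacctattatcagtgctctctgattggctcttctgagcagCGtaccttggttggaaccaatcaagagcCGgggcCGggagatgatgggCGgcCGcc
Syt1 window 2 (chr10:109009112-109009361, minus strand): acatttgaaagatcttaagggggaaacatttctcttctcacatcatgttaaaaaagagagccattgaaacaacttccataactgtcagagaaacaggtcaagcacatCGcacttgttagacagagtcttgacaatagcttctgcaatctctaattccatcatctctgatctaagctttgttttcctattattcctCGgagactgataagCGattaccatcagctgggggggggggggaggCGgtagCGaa
Nts (chr10:102490419-102490668, minus strand): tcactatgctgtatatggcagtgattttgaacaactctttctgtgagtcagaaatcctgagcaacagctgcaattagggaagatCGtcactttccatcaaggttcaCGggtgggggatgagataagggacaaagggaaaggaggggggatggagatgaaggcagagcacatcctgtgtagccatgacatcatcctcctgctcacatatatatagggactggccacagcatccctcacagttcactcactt

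These stretches differed in CG content. Nkx6-1 had 30 CG dinucleotides, Neurod1 and Olig2 had 22 each, Pou3f2 had 18 and Prdm8 had 11. The Syt1 windows had 8 and 5, and 57% and 44.4% of all windows had fewer. The Nts stretch had 2, and 18.8% of the 32851 windows in the RefSeq table had fewer. Neurod1 and Olig2 exceeded 85.2% of all windows and Nkx6-1 exceeded 94.1%. The median was 12 over the member windows and 6 over all windows. A high CG count was also found in members that did not pass the test in ES cells, with 29 in Sox1, 32 in Hes5 and 34 in Map2. The E-box CAGCTG (its own reverse complement) was present in 6 of the 30 member windows and in 13% of all windows. Among the 6, windows 2 and 3 of Elavl4 overlap and hold the same copy. Prdm8, Nts and window 2 of Syt1 each had 1 copy. TTCAGCACC, one end of the RE1 element bound by Rest, searched on both strands, was in 0 of the 30 member windows and 0.3% of all windows. The octamer ATGCAAAT, also searched on both strands, was in 1 member window, that of Neurog1, and 1.6% of all windows.

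The first comparison asks which members KD33 altered before differentiation. In KD33 ES cells 13 of the 29 tested members were higher than in control ES cells and 1 was lower (limma, Benjamini-Hochberg adjusted p under 0.05 over all genes). Over all 21184 genes, 22% were higher and 16.5% lower. Regulators made up 8 of the 13 higher members: Pou3f2, Prdm8, Olig2, Neurod1, Sox3, Nkx6-1, Irx3 and Lhx2. The structural and neuronal genes were Syt1, Fabp7, Gap43, Ncam1 and Nes, and the lower member was Tubb3, the neuronal beta-tubulin. The median difference of the members was 0.49 on the log2 scale, beside 0.04 over all genes. The filter bears on this count: Neurod1, Olig2 and Pou3f2 passed it only through KD33 ES cells. Of the 22 members well above background on at least 3 arrays of both ES groups, 7 were higher and 1 lower. The share of all genes under that restriction was not counted, so these 7 and 1 have no background beside them.

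**Figure D1:**
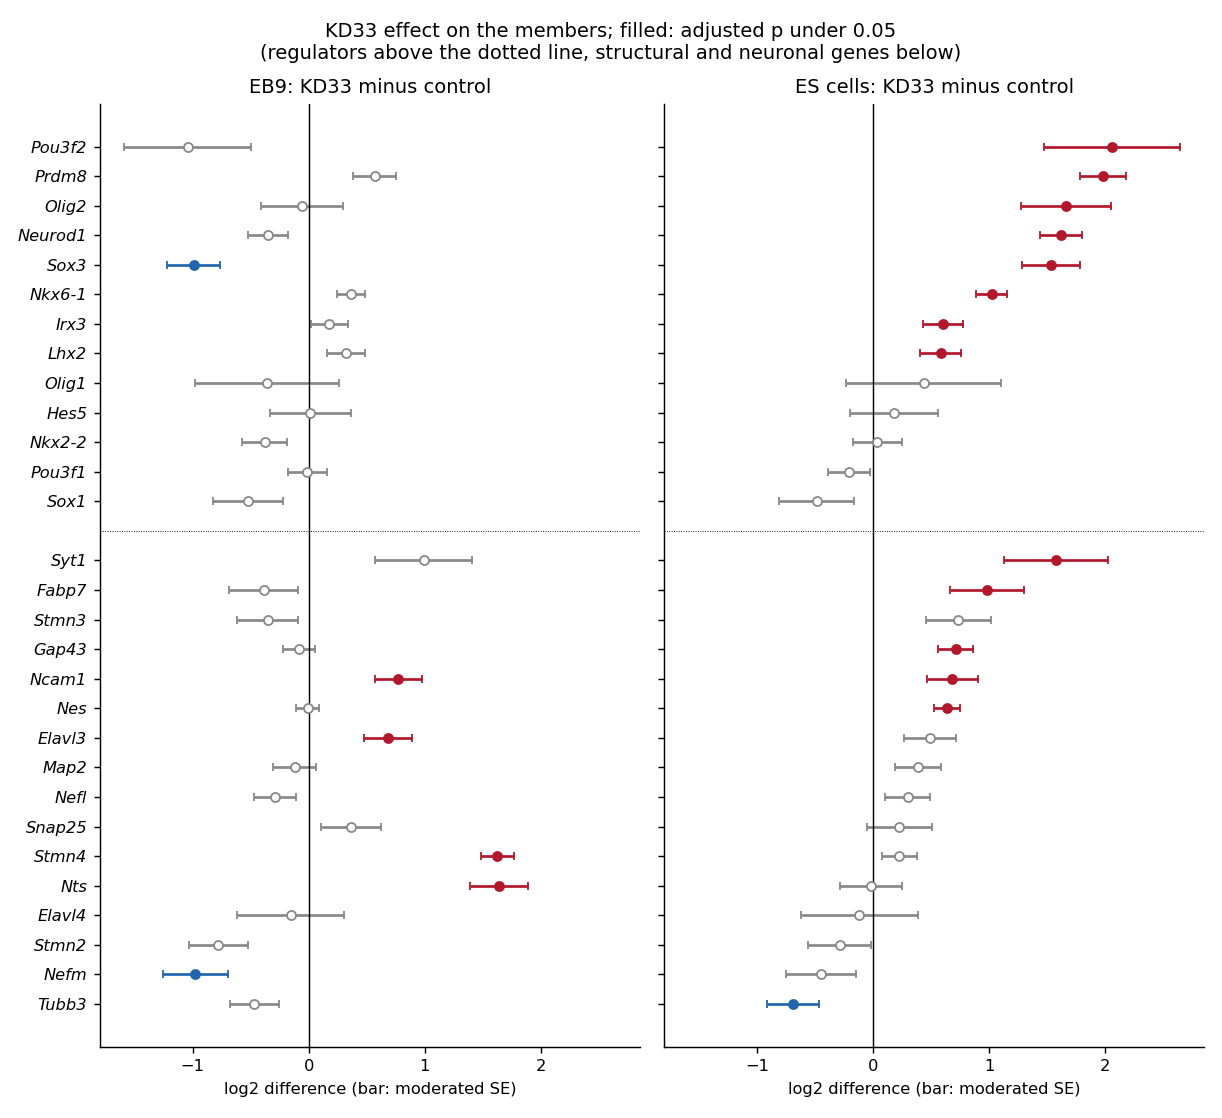
Log2 difference between KD33 and control (x axis) for the 29 tested members, in EB9 (left) and in ES cells (right), with regulators above the dotted line and structural and neuronal genes below it. Bars are moderated standard errors, and filled points passed an adjusted p of 0.05 (red higher, blue lower in KD33). In ES cells 13 filled points lie above 0 and 1 below, and in EB9 4 lie above and 2 below.

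Among the regulators, the POU factor Pou3f2, which acts in neural progenitors, was higher in KD33 ES cells. Each level is a log2 signal from which the array's 75th percentile was subtracted. Pou3f2 read −4.24, −5.01, −4.71 and −5.68 in KD33 ES cells, against −6.59, −7.16 and −7.15 in control ES cells. The groups did not overlap, and 1 of the 3 control arrays was well above background. The measured difference was 2.06 (SE 0.59, adjusted p = 0.0142), and its size is limited by the control arrays that were not well above background. Its probe lies at chr4:22411520-22411579 (mm9).

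Prdm8, a PR-domain transcription factor of neural development, read −6.25, −5.95, −6.35 and −6.08 in KD33 ES cells, against −8.46, −7.54 and −8.41 in control ES cells. No control array was well above background and every KD33 array was, so the level was at least 1.62-fold higher in KD33 (log2 difference as measured 1.98, SE 0.2, adjusted p = 7.74e-06). Olig2, which specifies motor neuron and oligodendrocyte progenitors, read −4.46, −5.64, −5.6 and −5.52 in KD33 ES cells, against −6.93, −7.01 and −6.97 in control ES cells. Replicate 1 of KD33 lay above the other KD33 arrays, and no control array was well above background. Olig2 was at least 2.93-fold higher in KD33 (log2 difference as measured 1.66, SE 0.38, adjusted p = 0.0041). These lower bounds, and those below, hold only for the background subtraction used in the array files.

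Neurod1, a helix-loop-helix factor that drives neuronal differentiation, read −5.03, −5.02, −5.14 and −5.06 in KD33 ES cells, against −6.39, −6.77 and −6.88 in control ES cells. All KD33 arrays lay within a narrow range above the controls, of which 1 was well above background. The difference was 1.62 (SE 0.18, adjusted p = 2.1e-05) at the probe at chr2:79294309-79294368 (mm9). Its other probe was well above background on the 4 KD33 ES arrays and on 0 of the 3 control ES arrays, so its difference has no measured size.

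Sox3, a SoxB1 factor of neural progenitors, read 0.47, 0.81, 0.79 and 0.7 in KD33 ES cells, against −1.13, −0.7 and −0.7 in control ES cells. It was well above background on every array, and its groups did not overlap (difference 1.53, SE 0.25, adjusted p = 0.00033, 2.9-fold higher in KD33). Nkx6-1, a homeodomain factor of the ventral neural tube, read −3.67, −3.66, −3.53 and −3.58 in KD33 ES cells, against −4.98, −4.51 and −4.41 in control ES cells. Its KD33 arrays also all lay above the controls (difference 1.02, SE 0.13, adjusted p = 6.52e-05). Irx3 and Lhx2, patterning factors of the neural tube and the forebrain, rose by 0.6 (SE 0.17, adjusted p = 0.0148) and by 0.58 (SE 0.17, adjusted p = 0.0182).

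The other tested regulators did not pass the test in ES cells in the fit over all arrays. With only the ES arrays in the fit, Sox1 and Pou3f1 passed as lower in KD33. Sox1, another SoxB1 factor, differed by −0.49 (SE 0.32), and its other probe by 0.34 (adjusted p = 0.548). Pou3f1 differed by −0.21 (SE 0.18), Nkx2-2 by 0.04 (SE 0.21), the Notch target Hes5 by 0.18 (SE 0.38) and Olig1 by 0.44 (SE 0.67). The proneural factors Neurog1, Neurog2 and Neurod4 were not tested. Neurog1 was well above background on 1 of 4 KD33 and 2 of 3 control ES arrays, Neurog2 on 2 of 4 and 1 of 3, and Neurod4 on none of either.

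Among the structural and neuronal genes, Syt1, the calcium sensor of synaptic vesicle release, was higher in KD33 ES cells. Syt1 read −5.43, −5.91, −5.89 and −7.31 in KD33 ES cells, against −8.74, −7.07 and −7.32 in control ES cells. The groups overlapped, since KD33 replicate 4 lay below control replicate 3, and no control array was well above background. The level was at least 1.65-fold higher in KD33 (log2 difference as measured 1.58, SE 0.45, adjusted p = 0.0136). Without ES control 2 the difference was 1.06 and did not pass (adjusted p = 0.0721). Fabp7, a fatty acid binding protein of radial glia, read −5.83, −5.71, −6 and −5.62 in KD33 ES cells, against −6.59, −6.47 and −7.25 in control ES cells. The groups did not overlap, no control array was well above background, and the level was at least 1.83-fold higher in KD33 (adjusted p = 0.0274).

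Gap43, a growth cone protein, rose by 0.71 (SE 0.15, adjusted p = 0.00226) and nestin (Nes), the intermediate filament of neural progenitors, by 0.64 (SE 0.11, adjusted p = 0.000514). The neural cell adhesion molecule Ncam1 rose by 0.68 (SE 0.22, adjusted p = 0.0266) at its brightest probe, while its other probes differed by 0.14 (adjusted p = 0.741) and 0.28 (adjusted p = 0.688). Tubb3 fell by 0.69 on the log2 scale (SE 0.23, adjusted p = 0.0282). The remaining members did not pass in the fit over all arrays. With only the ES arrays in the fit, Elavl3, Map2, Nefl and Stmn3 passed as higher and Nefm and Stmn2 as lower, while Syt1 was lost. That fit gave 16 members higher and 5 lower, beside 5210 and 4136 of all 21184 genes. Stmn3 differed by 0.74 (SE 0.28, adjusted p = 0.057). A model with a slide term gave 0.78 (adjusted p = 0.0268) for it. The neuronal RNA-binding proteins Elavl3 and Elavl4 differed by 0.49 and −0.12, Map2 by 0.38, Snap25 by 0.23, the neurofilaments Nefl and Nefm by 0.3 and −0.45, Stmn2 by −0.29, Stmn4 by 0.23 and Nts by −0.02. Dcx, a microtubule-associated protein of migrating neurons, was well above background on no ES array and was not tested.

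The dim members had smaller differences under other background corrections. With normexp correction the difference in ES cells was 0.89 for Pou3f2, 0.54 for Prdm8, 0.7 for Olig2, 0.75 for Neurod1, 0.53 for Syt1 and 0.45 for Fabp7, each past the threshold. From the authors' deposited log2 values it was 0.69, 0.32, 0.5, 0.56, 0.29 and 0.24 for the same genes, and Syt1 (adjusted p = 0.0587) and Fabp7 (adjusted p = 0.162) did not pass. For Prdm8, Olig2, Syt1 and Fabp7 these smaller differences correspond to folds below the lower bounds given above. The brighter Sox3 kept 1.47 and 1.43. Several of the ES calls also rested on single arrays. Without ES control 3, Pou3f2 (adjusted p = 0.0505), Lhx2, Ncam1 and Tubb3 did not pass. Without ES control 2, Irx3 and Ncam1 were lost as well as Syt1, and without ES control 4, Fabp7, Lhx2, Ncam1 and Tubb3. Ncam1 was also lost without KD33 replicate 3 or 4, Fabp7 without replicate 2 or 4, and Tubb3 without replicate 1 or 4.

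**Figure D2:**
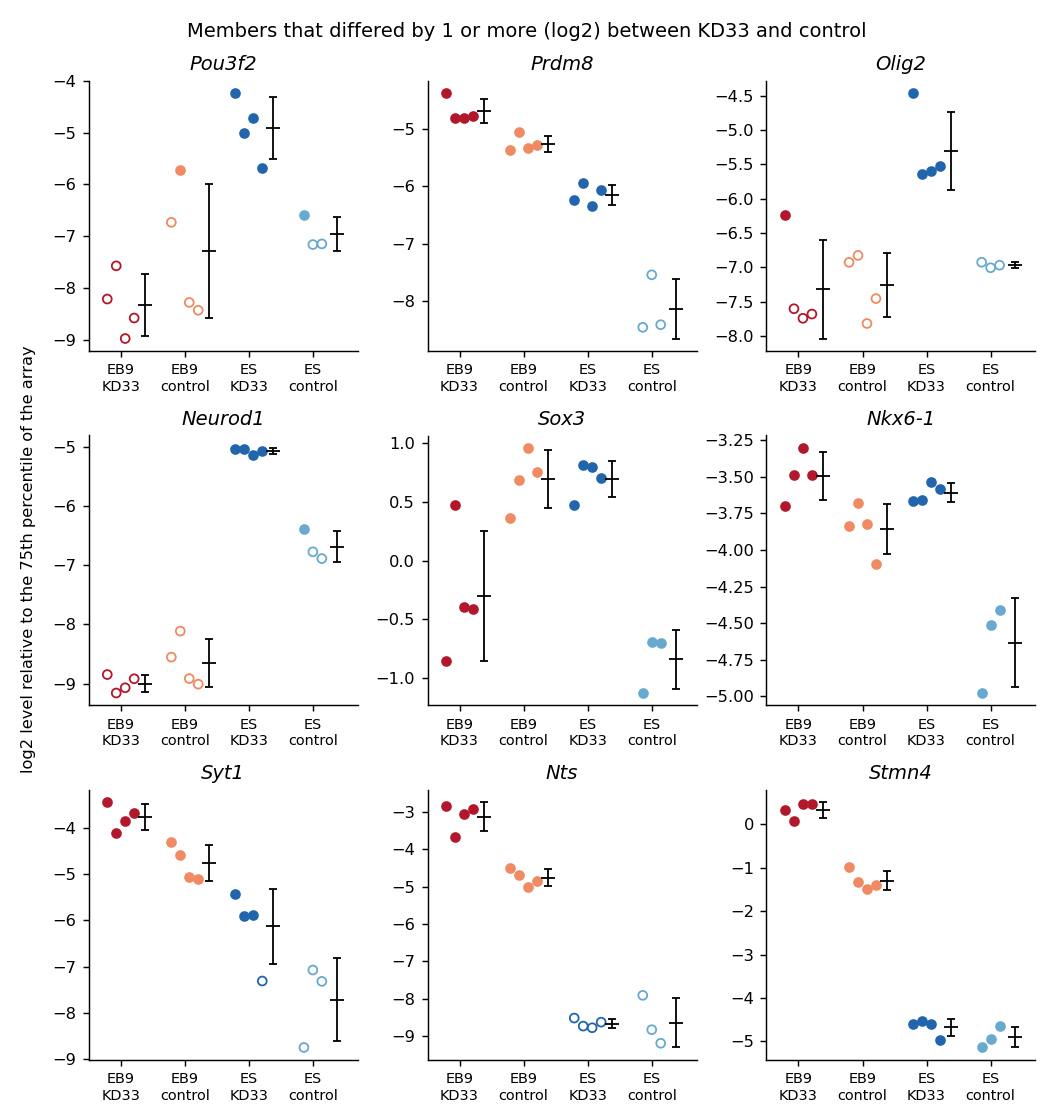
Log2 level, with the array's 75th percentile at 0 (y axis), on each array, for the 9 members that passed the test between KD33 and control with a difference of at least 1. Groups are EB9 KD33, EB9 control, ES KD33 and ES control, open circles were not well above background, and black marks are mean and SD. The ES KD33 arrays of Pou3f2, Prdm8, Olig2, Neurod1, Sox3 and Nkx6-1 lie above all ES control arrays, and the EB9 KD33 arrays of Nts and Stmn4 above all EB9 control arrays.

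Slides held both groups, so the differences were also taken within slides. In ES cells they ran from 2.15 to 2.44 for Pou3f2, from 1.59 to 2.21 for Prdm8, from 1.37 to 2.46 for Olig2, from 1.36 to 1.75 for Neurod1, from 1.49 to 1.6 for Sox3 and from 0.86 to 1.31 for Nkx6-1 over slides 1 to 3. All were positive. With the slide as a term all 14 calls remained, beside 27.3% of all genes higher and 20.1% lower, and the differences were 2.3 for Pou3f2, 1.98 for Prdm8, 1.75 for Olig2, 1.65 for Neurod1, 1.54 for Sox3 and 1.05 for Nkx6-1.

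**Figure D3:**
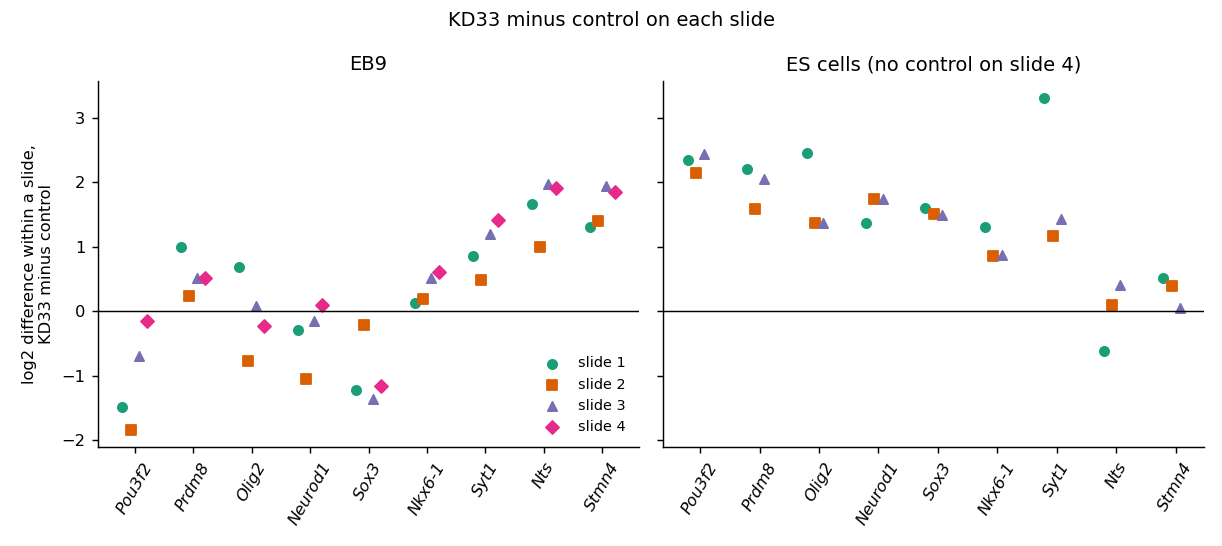
Log2 difference between KD33 and control arrays of the same slide (y axis) for the same 9 members (x axis), in EB9 (left, 4 slides) and in ES cells (right, 3 slides). Every ES point of Pou3f2, Prdm8, Olig2, Neurod1, Sox3, Nkx6-1 and Syt1 lies above 0, and every EB9 point of Sox3 lies below 0. For these genes other than Syt1, the ES signs follow from ES groups that do not overlap.

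Marker lists of other cells stand beside these results. Levels summed over a list are in units of the 75th percentile of the array. The 8 ES cell markers summed to 303.9 to 366.3 in KD33 and 328.3 to 340.9 in control ES cells, with 1 higher and 2 lower. Surface ectoderm markers (5 genes, Krt8 and Krt18 among them) summed to 14.66 to 15.89 in KD33 and 11.6 to 11.7 in control, with 2 higher. The 3 markers of primed epiblast summed to 8.89 to 9.24 in KD33 and 12.05 to 12.74 in control, with 1 higher and 1 lower. Primitive streak and mesoderm markers (4 tested of 5, without Mixl1) summed to 0.504 to 0.542 in KD33 and 0.725 to 0.764 in control, with 2 lower. Fibroblast markers (5) summed to 3.24 to 3.65 in KD33 and 2.91 to 3.12 in control, with 1 lower. Blood markers (5) summed to 0.605 to 0.681 in KD33 and 0.875 to 0.958 in control, and neural crest markers (4 tested of 5) to 0.818 to 0.875 in KD33 and 0.916 to 0.964 in control. In the lists above the KD33 and control ranges did not overlap, apart from the ES cell list. Cardiac muscle markers (6) summed to 2.15 to 2.57 in KD33 and 2.2 to 2.58 in control, with 1 higher. Visceral endoderm markers (6) summed to 0.428 to 0.49 in KD33 and 0.364 to 0.608 in control, with 3 lower. Both of these lists overlapped between the groups. Neurod1 and Nkx6-1 are also genes of pancreatic endocrine cells: of the 7 markers of these cells, 5 were tested (Gcg and Pax4 were not), and these summed to 0.555 to 0.577 in KD33 and 0.404 to 0.47 in control. No single marker of the blood, neural crest or pancreatic endocrine lists passed the test between KD33 and control ES cells. How often lists of other genes would not overlap was not tested. The part of any of these cells in the member differences was not tested.

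Other neural genes, from lists that do not hold the members, were counted in the same fit. They passed the same filter, which also admits genes through KD33 ES cells alone. How many did so was not counted, and the part of the filter in the counts below was not tested. Over all genes, 22% were higher and 16.5% lower in KD33 ES cells. Of 40 tested neural regulators (52 listed), 15 were higher and 2 lower in KD33 ES cells. The largest rises were in Ebf2 (1.94, SE 0.32) and Zic1 (1.68, SE 0.22), and the falls were in Otx2 (−1.48, SE 0.16), a factor of epiblast and forebrain, and Myt1l (−1.21, SE 0.43). Of 52 tested neuronal structural genes, 20 were higher and 5 lower, led by the axonal kinesin Kif1a (1.52, SE 0.12) and the adhesion molecule Nrcam (1.43, SE 0.14). Vgf, a secreted neuronal peptide precursor, fell (−1.25, SE 0.17), as did Mapt (−0.65, SE 0.09), the tau gene. Of 16 progenitor and radial glia genes, 6 were higher, Gpm6b (1.33, SE 0.12) and N-cadherin Cdh2 (1.1, SE 0.11) most, and Slc1a3 was lower (−0.63, SE 0.1). Of 10 tested glial genes, Cnp was higher (0.46, SE 0.07) and Pdgfra lower (−0.81, SE 0.08). The silencer of neuronal genes Rest differed by 0.1 (SE 0.06, adjusted p = 0.212), and its cofactor gene Rcor1 rose by 0.2 (SE 0.07, adjusted p = 0.0444). The medians were 0.38, 0.22, 0.25 and 0.09 for the regulator, structural, progenitor and glial lists, beside 0.04 over all genes.

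The second comparison asks the same question in EB9. There 4 of the 29 tested members were higher in KD33 than in control EB9 and 2 were lower, beside 7.96% higher and 7.2% lower over all genes. The higher members were the structural and neuronal genes Stmn4, Nts, Ncam1 and Elavl3. The lower ones were the regulator Sox3 and the neurofilament Nefm. In this fit all 4 higher members were thus structural or neuronal genes, but other settings added regulators. The median member difference was −0.09, beside −0.01 over all genes. With normexp correction 7 were higher and 2 lower, beside 6.4% and 4.79% of all genes. The authors' deposited values also gave 7 and 2, beside 6.48% and 5.66%. Both settings gained the regulators Nkx6-1 and Prdm8 and the neuronal gene Syt1, and quantile normalisation gained Nkx6-1.

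Stmn4, a neuronal protein of the stathmin family that binds tubulin, read 0.32, 0.08, 0.46 and 0.46 in KD33 EB9, against −0.99, −1.32, −1.49 and −1.39 in control EB9. The groups did not overlap (difference 1.62, SE 0.14, adjusted p = 4.84e-05, 3.08-fold higher in KD33), and its other probe rose by 1.69 (adjusted p = 0.000371). Nts, the precursor of the peptide neurotensin, read −2.84, −3.68, −3.05 and −2.93 in KD33 EB9, against −4.5, −4.69, −5.02 and −4.84 in control EB9. Every KD33 array lay above every control (difference 1.64, SE 0.25, adjusted p = 0.00115, 3.11-fold higher in KD33). With normexp correction the Nts difference was 1.1, and from the authors' deposited values it was 1.02, both past the threshold. Within slides it ran from 1 to 1.97 for Nts and from 1.31 to 1.95 for Stmn4. The Stmn4 probes lie at chr14:66980426-66980485 and chr14:66980442-66980501 and the Nts probe at chr10:101944967-101945026 (mm9).

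Sox3 read −0.86, 0.47, −0.4 and −0.41 in KD33 EB9, against 0.36, 0.69, 0.96 and 0.75 in control EB9. KD33 replicate 2 lay within the range of the controls and the other KD33 arrays below it (difference −0.99, SE 0.23, adjusted p = 0.0127). The Sox3 call was lost with only the EB9 arrays in the fit (adjusted p = 0.0795). Ncam1 rose by 0.77 (SE 0.2, adjusted p = 0.0241), and another probe, well above background on every array, rose by 1.03 (adjusted p = 0.0158). The remaining Ncam1 probe was well above background on 3 of 4 KD33 EB9 arrays and 0 of 4 control EB9 arrays, so its difference has no measured size. Elavl3 rose by 0.69 (SE 0.21, adjusted p = 0.0415) and Nefm fell by 0.98 on the log2 scale (SE 0.28, adjusted p = 0.0342), with overlapping groups in each case. Without EB9 control 2, Nefm differed by −0.69 (adjusted p = 0.0616) and Ncam1 by 0.68 (adjusted p = 0.0591), Elavl3 by 0.96 (adjusted p = 0.000141), and Stmn4, Nts and Sox3 still passed. Elavl3 lost its call when any 1 of 13 other arrays was left out, Ncam1 with any 1 of 6 arrays (EB9 KD33 1, 3 or 4, EB9 control 2, 3 or 4) and Nefm with any 1 of 5 (EB9 KD33 1, 3 or 4, EB9 control 2 or 4).

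With the slide as a term in the model, 8 members were higher and 5 lower in KD33 EB9, beside 13.5% and 13.2% of all genes in that model. All 6 calls remained, and Prdm8 (0.57, adjusted p = 0.0309), Nkx6-1 (0.36, adjusted p = 0.0253), Lhx2 (0.32, adjusted p = 0.0367) and the synaptic SNARE protein Snap25 (0.36, adjusted p = 0.0309) passed as higher. Stmn2 (−0.78, adjusted p = 0.0149), Tubb3 (−0.47, adjusted p = 0.0215) and Nkx2-2 (−0.38, adjusted p = 0.0458) passed as lower. Without the slide term the other tested members lay between −1.04 (Pou3f2) and 0.99 (Syt1), and no other call was made. Pou3f2, Neurod1 and Olig1 were well above background on no KD33 EB9 array, and Olig2 on 1 of 4. Of the untested members, Dcx was well above background on 1 of 4 KD33 and 2 of 4 control EB9 arrays, Neurog1 on 2 of 4 in each, and Neurog2 and Neurod4 on none.

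The other neural lists were counted in EB9 too, where 7.96% of all genes were higher and 7.2% lower. The counts of these lists lay near or below those shares. Of the 40 tested regulators 3 were higher and 2 lower: Zic1 (0.7, SE 0.2) and Ebf3 (0.46, SE 0.12) rose most, and Otx2 (−0.49, SE 0.15) fell. Of the 52 structural genes 5 were higher and 5 lower, with Nefh, the heavy neurofilament (1.07, SE 0.09), and Mapt (0.54, SE 0.09) above and Celf3 (−0.95, SE 0.21) and Tagln3 (−0.65, SE 0.18) below. Of the 16 progenitor genes Sfrp1 was higher (0.62, SE 0.18) and Gpm6b lower (−0.57, SE 0.12). Medians were −0.11 for the regulators, −0.01 for the structural genes, −0.09 for the progenitor genes and 0.07 for the glial genes. The median over all genes was −0.01. Rest differed by 0.03 (SE 0.05). Markers of fibroblasts summed to 95.78 to 144.1 in KD33 and 89.07 to 129.7 in control EB9, and those of blood to 115.8 to 244.7 in KD33 and 127.8 to 256.9 in control, so these groups overlapped. Primitive streak and mesoderm markers summed to 0.52 to 0.572 in KD33 and 0.787 to 1.31 in control EB9, with 3 of 4 tested lower, and primed epiblast markers to 6.02 to 9.63 in KD33 and 11.11 to 14.82 in control, with 2 of 3 lower. Neither list overlapped between the groups, and both were lower in KD33. Both were also lower without overlap in KD33 ES cells. Of the 8 ES cell markers 3 were higher and 1 lower in KD33 EB9. Lower there were also 2 of 6 visceral endoderm markers, 1 of 4 tested neural crest markers and 1 of 5 fibroblast markers. How often lists of other genes would not overlap was not tested. The part of any of these cells in the member differences in EB9 was not tested.

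Whether the KD33 effect differed between stages was tested as the difference of the effects, EB9 minus ES. It was positive for 2 members and negative for 10, beside 12.7% positive and 17% negative over all genes. Of the 21 members well above background on at least 3 arrays of every group, 1 was positive and 5 were negative. The share of all genes so restricted was not counted. Pou3f2, Neurod1 and Olig2, among the 10, passed the filter only through KD33 ES cells, where they were high, so their tests are no support for that count. The effect on Sox3 was −0.99 in EB9 and 1.53 in ES cells (difference −2.52, SE 0.34, adjusted p = 0.000145), opposite in sign and past the threshold at each stage in the fit over all arrays. The effects were −1.04 and 2.06 for Pou3f2 (difference −3.1, SE 0.8, adjusted p = 0.0107), −0.35 and 1.62 for Neurod1 (difference −1.97, SE 0.25, adjusted p = 9.63e-05), and −0.06 and 1.66 for Olig2 (difference −1.72, SE 0.52, adjusted p = 0.0248), with EB9 given first. All but Sox3 lay mostly below background in EB9, which limits the size of their differences there. The 2 positive differences were those of Nts (1.66, SE 0.36, adjusted p = 0.00405) and Stmn4 (1.4, SE 0.21, adjusted p = 0.000287).

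In EB9 the arrays of these regulators were as follows. Pou3f2 read −8.22, −7.57, −8.98 and −8.58 in KD33 EB9, against −6.73, −5.73, −8.28 and −8.43 in control EB9. Neurod1 read −8.85, −9.16, −9.07 and −8.92 in KD33 EB9, against −8.55, −8.11, −8.92 and −9.01 in control EB9. Olig2 read −6.24, −7.6, −7.74 and −7.68 in KD33 EB9, against −6.93, −6.83, −7.82 and −7.46 in control EB9. The EB9 groups overlapped for all of them, and among these values only control 2 of Pou3f2 and KD33 1 of Olig2 were well above background.

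Prdm8 read −4.39, −4.82, −4.82 and −4.77 in KD33 EB9, against −5.38, −5.06, −5.33 and −5.29 in control EB9. The groups did not overlap, but the difference of 0.57 (SE 0.18, adjusted p = 0.0548) did not pass. Its KD33 effect differed between stages by −1.41 (SE 0.27, adjusted p = 0.00168), but by −0.21 (adjusted p = 0.261) with normexp correction and by −0.06 (adjusted p = 0.786) from the authors' deposited values. Nkx6-1 (−0.66, SE 0.18), Gap43 (−0.8, SE 0.21) and Nes (−0.65, SE 0.15) also had lower KD33 effects in EB9 than in ES cells, each past the threshold.

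Fabp7 read −4.39, −4.26, −4.23 and −5.33 in KD33 EB9, against −4.74, −3.41, −4.31 and −4.21 in control EB9. Its groups overlapped in EB9, and its KD33 effect differed between stages by −1.37 (SE 0.44, adjusted p = 0.0306). Stmn3, another stathmin, read −5.46, −4.33, −4.97 and −5.09 in KD33 EB9, against −5, −3.74, −4.83 and −4.87 in control EB9. In ES cells it read −0.89, −1.04, −1.01 and −0.99 in KD33, against −1.76, −1.74 and −1.65 in control. The ES groups of Stmn3 did not overlap, and its KD33 effect differed between stages by −1.09 (SE 0.39, adjusted p = 0.0495). That call was lost in 12 of the 15 fits with 1 array left out, in which the difference ran from −1.18 to −0.93. Without EB9 control 2 the Stmn3 call was kept, with a smaller difference of −0.8 (adjusted p = 0.0407). Fabp7 lost the same call without ES KD33 2 or 4 or ES control 4, and Olig2 without EB9 KD33 3 or 4 or ES control 3 or 4. With quantile normalisation Olig2 did not pass either (−1.48, adjusted p = 0.114).

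The members were also compared between stages, separately in KD33 and in control. In KD33, 10 of the 29 tested members were higher in EB9 than in ES cells and 15 were lower. Over all genes 33.7% were higher and 44.2% lower. In control, 12 were higher and 12 lower, beside 33.3% and 41.5% of all genes. Among the 15 lower in KD33, Pou3f2, Neurod1 and Olig2 passed the filter only through KD33 ES cells, where they were high. Their falls are therefore no support for that count. Nts passed it only through EB9 and Olig1 only through ES cells. Of the 24 members well above background on at least 3 arrays of both KD33 groups, 9 were higher and 11 lower. Of the 21 such members in control, 8 were higher and 10 lower. Shares of all genes with the same restriction were not counted. Over all genes the median difference was −0.18 in KD33 and −0.14 in control, and quantile normalisation moved the KD33 median to −0.06. With quantile normalisation 11 members were higher and 15 lower in KD33, and 12 and 12 in control. These comparisons use the same arrays as those above, so their values are set side by side.

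**Figure D4:**
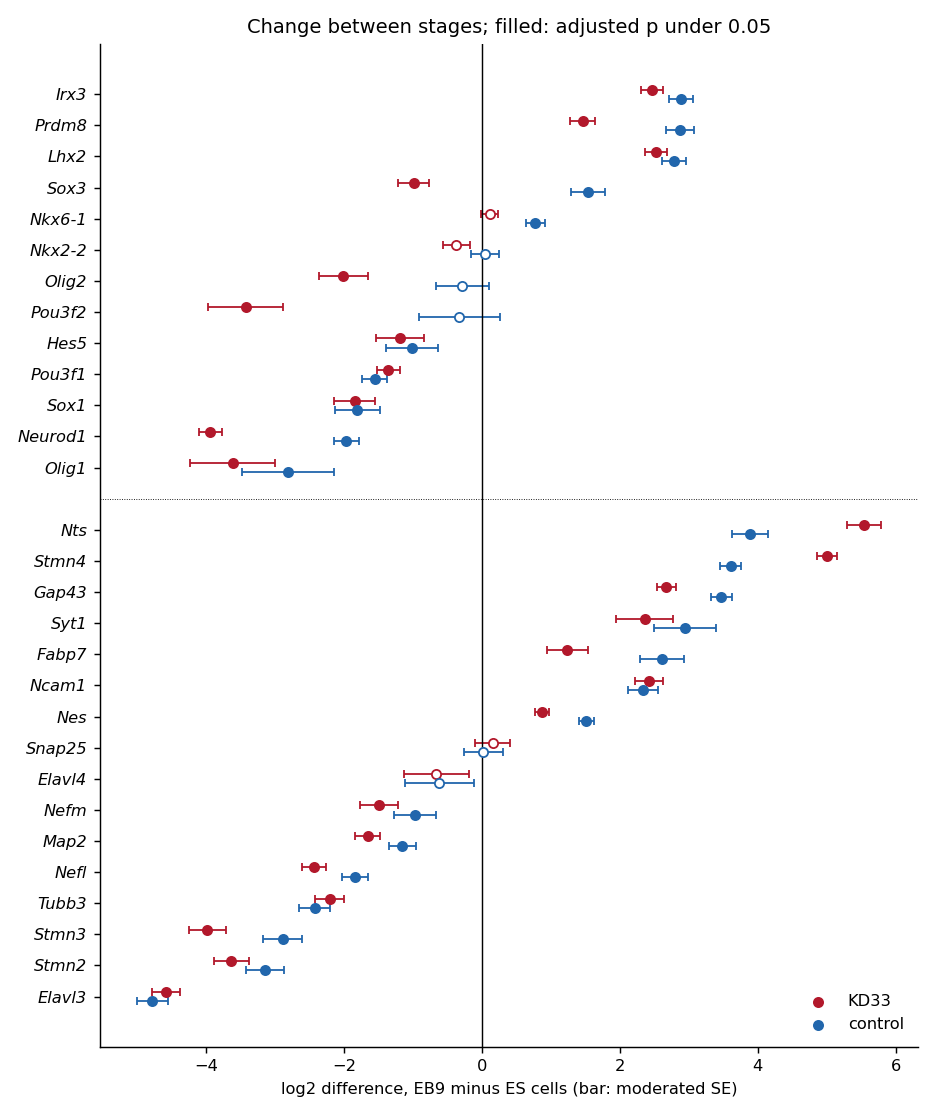
Log2 difference between EB9 and ES cells (x axis) for the 29 tested members, in KD33 (red) and in control (blue), with regulators above the dotted line and structural and neuronal genes below it. Bars are moderated standard errors, and filled points passed an adjusted p of 0.05. Nts and Stmn4 lie furthest to the right, Elavl3 lies furthest to the left, and Sox3 lies on opposite sides of 0.

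By measured difference, Nts, Stmn4, Gap43 and Syt1 rose most in control EB9 over control ES cells, but Nts and Syt1 were well above background on no control ES array and so have no rank. Nts read −8.52, −8.74, −8.78 and −8.63 in KD33 ES cells and −7.91, −8.83 and −9.19 in control ES cells, well above background on none of them. With the EB9 levels given above, it was at least 11.3-fold higher in EB9 than in ES cells in KD33 and at least 4.27-fold in control (adjusted p = 1.22e-10 and 1.32e-08). Stmn4 read −4.6, −4.54, −4.59 and −4.97 in KD33 ES cells and −5.12, −4.94 and −4.65 in control ES cells. Its rise was 5 (SE 0.14) in KD33 and 3.6 (SE 0.15) in control. The ES groups of Nts and of Stmn4 overlapped.

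Gap43 read 0.4, 0.96, 0.69 and 0.64 in KD33 EB9, against −2.14, −1.82, −2 and −2.04 in KD33 ES cells. In control it read 0.41, 1.07, 0.86 and 0.7 in EB9, against −2.77, −2.6 and −2.76 in ES cells. The stages did not overlap, and the rise was 2.67 (SE 0.14) in KD33 and 3.47 (SE 0.15) in control. Syt1 read −3.45, −4.11, −3.85 and −3.69 in KD33 EB9 and −4.3, −4.6, −5.06 and −5.11 in control EB9. It was 5.12-fold higher in EB9 in KD33 and at least 4.25-fold in control, while its KD33 and control EB9 arrays did not overlap but differed by 0.99 (SE 0.41, adjusted p = 0.133). Lhx2, Irx3, Ncam1, Fabp7, Nes and Prdm8 were also higher in EB9 in both KD33 and control. For Ncam1 this held at its brightest probe (2.42 in KD33 and 2.33 in control), while the other probe that was well above background on every array differed by 0.74 (adjusted p = 0.0145) in KD33 and −0.15 (adjusted p = 0.624) in control.

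The largest falls of control EB9 below control ES cells were those of Elavl3 and Stmn2. Elavl3 read −3.73, −3.73, −3.47 and −3.49 in KD33 EB9, against 0.95, 1.03, 0.94 and 0.99 in KD33 ES cells. In control it read −4.7, −3.48, −4.32 and −4.67 in EB9, against 0.49, 0.5 and 0.46 in ES cells. The stages were far apart, with differences of −4.58 (SE 0.21) in KD33 and −4.78 (SE 0.22) in control. Stmn2, a stathmin of growing axons, read −1.76, −0.51, −1.3 and −1.36 in KD33 EB9, against 2.37, 2.48, 2.39 and 2.37 in KD33 ES cells. In control it read −1.08, 0.15, −0.41 and −0.47 in EB9, against 2.61, 2.73 and 2.73 in ES cells. The differences were −3.64 (SE 0.25) in KD33 and −3.14 (SE 0.27) in control. EB9 control 2 was the highest control EB9 array for both genes.

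Regulators and structural genes were on both sides. In KD33 the regulators Sox1, Pou3f1, Hes5, Olig1, Neurod1, Sox3, Olig2 and Pou3f2 were lower in EB9 than in ES cells, and Lhx2, Irx3 and Prdm8 were higher. In control Sox1, Pou3f1, Hes5, Olig1 and Neurod1 were lower in EB9, and Sox3, Nkx6-1, Lhx2, Irx3 and Prdm8 higher. Hes5 overlapped between the stages in control, and its call there was lost with only the control arrays in the fit and without ES control 2 or 3 or EB9 control 1 or 3. The other Sox1 probe differed by −0.93 (adjusted p = 0.0285) in KD33 and −0.4 (adjusted p = 0.36) in control. Tubb3, Map2, Nefl, Nefm and Stmn3 were lower in EB9 in both, with Elavl3 and Stmn2. Sox3 was 1.99-fold lower in EB9 than in ES cells in KD33 (difference −0.99, SE 0.23, adjusted p = 0.00135), but 2.89-fold higher in EB9 than in ES cells in control (difference 1.53, SE 0.25, adjusted p = 7.53e-05). Its level averaged −0.3 ± 0.55 in KD33 EB9 and 0.69 ± 0.25 in control EB9 (SD, n = 4 each), and 0.69 ± 0.15 (SD, n = 4) in KD33 ES cells and −0.84 ± 0.25 (SD, n = 3) in control ES cells. Olig2 was lower in EB9 in KD33 (adjusted p = 0.000156), where it was well above background on 1 of 4 EB9 arrays, and in control it was below background at both stages. Pou3f2 and Neurod1 were at least 3.65-fold and 3.28-fold lower in EB9 in KD33. Nkx2-2, Snap25 and Elavl4 passed in neither. With the slide as a term Elavl4 passed in both and Nkx2-2 in KD33, which Nkx2-2 also did with normexp correction and with the authors' deposited values. Elavl4 also passed in both with the mean of its probes, and its dimmer probe, well above background on 2 of 4 KD33 and 1 of 4 control EB9 arrays, fell by 1.02 in KD33 (adjusted p = 0.000843) and by 1.48 in control (adjusted p = 7.52e-05). Nkx6-1 passed in control alone (0.11, SE 0.12 in KD33 and 0.77, SE 0.13 in control).

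In EB9 other cell types were present by their markers, beside which these falls and rises stand. The 8 ES cell markers summed to 23.33 to 30.01 in KD33 EB9 and 303.9 to 366.3 in KD33 ES cells, and to 22.33 to 29.87 in control EB9 and 328.3 to 340.9 in control ES cells. The 5 blood markers summed to 115.8 to 244.7 in KD33 EB9 and 0.605 to 0.681 in KD33 ES cells, and the 5 fibroblast markers to 95.78 to 144.1 and 3.24 to 3.65. In KD33 and in control, all 5 blood markers and all 6 visceral endoderm markers were higher in EB9. Of the fibroblast markers 4 were higher and 1 was lower in each. The part of the cell makeup in the member differences was not tested.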

How the data were processed

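The members and the gene lists were chosen with earlier results of these data known. The deposited scanner files gave intensity, which the authors extracted with Agilent Feature Extraction 10.7.3.1 (background-subtracted and detrended within each array, per the file headers). Flags of another kind (well above background) were used as deposited per the file headers. The authors' deposited value table held log2 values with a median of 7.53 on every array, and served as an alternative. The sources used here do not give how its background was corrected.

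Here log2 of the processed signal minus its 75th percentile on each array was used. Probes well above background on at least 3 arrays of a group were kept (27250 of 39429), control spots and outlier-marked spots were left out, and the brightest kept probe stood for a gene (21184 genes, 79 with a missing value). Probes were named by accession (26418), by current symbol (3988), by older symbol (826) or by the name in the file (8197). limma 3.58.1 in R 4.3.3 fitted all 15 arrays with 4 groups, giving 5 two-sided comparisons, with Benjamini-Hochberg adjustment over all genes. The procedure was tested on simulated data. Folds written "at least" are lower bounds, for a dimmer group with no array well above background: the brighter group's mean against, per array, the higher of the probe's own signal and the lowest signal among probes well above background. These bounds hold for the processed signal only, not under other background corrections. The number of arrays limits the precision.

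Per-array values are given for members with a called KD33 difference, or a called difference of the KD33 effect between stages, of at least 1 on the log2 scale, and for the 4 largest rises and the 2 largest falls between stages in control. From each other neural list the 2 largest called rises and falls per KD33 comparison are named, except 1 gene that is not reported here. Replicate numbers follow the slides in every group except the ES control, so the number was not used to pair arrays. Deviations from the group mean correlated at −0.59 to 0.55 for same-numbered arrays (median 0.34, 21 pairs). They correlated at 0.21 to 0.63 for arrays on 1 slide (median 0.43, 21 pairs), and at −0.59 to 0.49 for arrays on different slides (median −0.31, 63 pairs). Arrays of a slide were thus alike. The main model has no slide term, and the slide term was an alternative.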

Additional observations from a re-analysis of the deposited data

Results flagged for a closer look

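Among 87 groups of 4 arrays, 9 groups, of 8 members, had an array far from the rest, by a test that chance meets in about 1 in 20 groups. EB9 control 2 was the array in 4 of them: it was highest for Sox1 (−3.12, next −4.5), Stmn3 (−3.74, next −4.83) and Nefm (−3.51, next −4.56) and lowest for Lhx2 (−0.39, next 0.08). KD33 replicate 1 was highest for Olig2 in EB9 (−6.24, next −7.61) and in ES cells (−4.46, next −5.52), and for Prdm8 in EB9 (−4.39, next −4.77). KD33 replicate 4 was lowest for Fabp7 in EB9 (−5.33, next −4.39) and for Stmn4 in ES cells (−4.97, next −4.6).

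The KD33 effect in EB9 minus that in ES cells passed the test for 12 members. It was −3.1 for Pou3f2, −2.52 for Sox3, −1.97 for Neurod1, −1.72 for Olig2, −1.41 for Prdm8, −1.37 for Fabp7, −1.09 for Stmn3, −0.80 for Gap43, −0.66 for Nkx6-1 and −0.65 for Nes. It was 1.66 for Nts and 1.4 for Stmn4.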

How the results depend on the processing

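The 81 called member differences, those between stages included, were recomputed under the other settings, which gave 717 values, leave-one-out aside. Of these values 701 kept direction and call, 16 lost the call and 0 turned in sign. The cause was not tested. With only the EB9 arrays in the fit, 2 of the 6 calls between KD33 and control EB9 were kept. Elavl3, Ncam1, Nefm and Sox3 were lost there. Of the 81, 14 lost the call with at least 1 array left out. In EB9, 7 members were higher in KD33 with normexp correction and 7 with the authors' deposited values, and 1 was lower without a filter on dim probes. With the slide as a term 8 were higher and 5 lower. With only the groups compared, 0 members were lower in KD33 EB9 and 5 in KD33 ES cells. Fitting the ES arrays alone raised the calls over all genes, from 4654 higher and 3493 lower to 5210 and 4136. Fitting the EB9 arrays alone cut them, from 1686 higher and 1525 lower to 655 and 478. Fewer arrays set the spread in both fits, and the cause of these opposite changes was not tested. Counting only members well above background in every group compared, chosen after seeing the data, 7 were higher in KD33 ES cells, and the effect differed between stages upward for 1 and downward for 5. All genes were not counted in that way. With the mean of all probes, Ncam1 in ES cells did not pass (0.37, adjusted p = 0.314).

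Leaving out 1 array at a time, 10 to 16 members were higher and 0 to 2 lower in KD33 ES cells, and 2 to 5 higher and 1 to 4 lower in KD33 EB9. The effect differed upward for 2 to 3 and downward for 7 to 12. Between stages the counts were 10 and 15 to 16 in KD33, and 12 and 11 to 12 in control. With the replicate block, 14 members were higher and 1 lower in KD33 ES cells, 4 and 3 in KD33 EB9, 10 and 15 between stages in KD33, 12 and 13 in control, and 2 and 11 for the difference of effects; the pairing by number is not given by the design, and no call was lost. Members near background have differences limited by signal.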
